A study of Mus musculus with 9 samples.

Results

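The cell cycle and proliferation genes examined here were 32 of the 38926 gene symbols in the count files. They were chosen by symbol as genes of S phase and mitosis, without kinesins and histones. They comprised 19 genes whose products act in G2 and mitosis and 13 that act at G1/S and in S phase. All 32 passed the filter on low counts, and each library held 3 to 969 reads per gene, with under 10 reads in 6 of the 288 gene by library values. Transcript levels were measured in whole dorsal root ganglia, which hold the cell bodies of sensory neurons among Schwann cells, satellite glia, blood vessels and immune cells. Ganglia of levels L3, L4 and L5 were taken ipsilateral to the treatment.

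Each group had 3 libraries, and each library was made from ganglia pooled from 4 animals, so SDs and p-values measure the spread between pools. All mice were male wild-type C57BL/6 mice aged 8 to 10 weeks. The first group received intraplantar cisplatin, 40 µg in all, the second received the same cumulative amount of oxaliplatin by the same route, and the third received vehicle. Cisplatin and oxaliplatin are platinum drugs that form DNA adducts, and both cause sensory neuropathy in patients. Cisplatin carries ammine and chloride ligands, whereas oxaliplatin carries a diaminocyclohexane ligand and an oxalate leaving group. The labels do not give the number of injections or the time of collection.

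In a dividing cell, cyclin E with its kinase starts DNA replication, the MCM helicase and PCNA work at the replication fork, and the nucleotide enzymes supply its substrates. Cyclins A and B with Cdk1 then drive entry into mitosis, where the Aurora and Polo-like kinases, the spindle checkpoint and the anaphase-promoting complex order chromosome segregation. Sensory neurons are postmitotic. In a ganglion these transcripts are therefore known mainly from glia, vessel and immune cells that divide, although PCNA and the MCM genes also serve in DNA repair and are transcribed outside dividing cells.

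Gene reads numbered 31971613 to 38168902 in the cisplatin libraries, 35520144 to 38808509 in the oxaliplatin libraries and 22819185 to 32022672 in the vehicle libraries. Levels are given as CPM, read counts scaled to TMM-adjusted library totals, on which 3 reads correspond to 0.0711 to 0.188 CPM. Vehicle library 2 stood apart from the rest. Its scaling factor was 0.700, against 0.960 to 1.10 in the others, 51.0% of its reads were multiply aligned and 32.9% of its gene reads came from 10 genes. Among the 3 vehicle libraries it had the highest CPM in 21 of the 32 genes. Reads outside annotated genes made up 18.6 to 19.1% of uniquely aligned reads in cisplatin libraries, 16.6 to 17.8% in oxaliplatin libraries and 26.2 to 47.7% in vehicle libraries, so this share moved with treatment. Its part in the results was not tested. The summed CPM of 10 neuron markers ran from 14301 to 15910 in cisplatin libraries, 14918 to 15427 in oxaliplatin libraries and 14583 to 15588 in vehicle libraries. Neuron markers were thus abundant in every library.

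Mitotic transcripts were higher in the ganglia of cisplatin-treated mice than in those of vehicle-treated mice. Of the 32 genes, 17 rose, 1 fell and 14 did not pass an adjusted p of 0.05 (edgeR quasi-likelihood test, Benjamini-Hochberg over 17348 genes). The share that rose was 53.1%, against 15.8% of all genes tested, and 22.9% of all genes fell (38.7% in either direction). The median log2 fold change of the 32 genes was 0.41, against 0.00 for all genes, and 30 of the 32 values were above 0, against 50.4% of all genes. The cisplatin and vehicle libraries did not overlap in 18 genes that were higher and 1 that was lower after cisplatin, against 21.3% and 26.7% of all genes. Without vehicle library 2, 19 rose and 0 fell, and without vehicle library 1, 10 rose. Among all genes, 3401 of 17711 rose and 3908 fell without vehicle library 2, and 1920 of 17627 rose without vehicle library 1. With library totals alone in place of TMM scaling the median of all genes moved to 0.29 and that of the 32 genes to 0.69, which is 0.40 above it. All fold changes below are on the TMM scale, on which the median gene lies near 0. The calls of 9 genes held in every alternative setting: Cdk1, Ccna2, Aurkb, Bub1, Cenpf, Tpx2, Nusap1, Mki67 and Top2a (Aurkb did not enter the fit that required at least 1 CPM in 3 libraries). In whole tissue, more cells of a dividing type and more RNA per cell cannot be told apart.

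Of the 17 genes that rose, 12 were of G2 and mitosis, as were 19 of the 32. Of these 19 genes 63.2% rose, none fell, all 19 fold changes were above 0 and the median was 0.68. Of the 13 genes of G1/S and S phase, 5 (38.5%) rose, 1 fell and the median was 0.20. Both shares stand against 15.8% of all genes, and the difference between these subsets was not tested. The summed level of the mitotic genes was 80.7 to 90.8 CPM in cisplatin libraries, 62.6 to 72.5 CPM in oxaliplatin libraries and 52.7 to 62.6 CPM in vehicle libraries. The summed level of the S phase genes was 120 to 124 CPM in cisplatin libraries, 116 to 117 CPM in oxaliplatin libraries and 111 to 122 CPM in vehicle libraries. Cisplatin libraries thus lay above all others in the mitotic sum, while in the S phase sum they overlapped the vehicle libraries.

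After oxaliplatin, 5 of the 32 genes rose against vehicle, 1 fell and 26 did not pass the test. The 5 genes were Ccna2, Aurkb, Bub1, Bub1b and Top2a, all from the G2 and mitosis genes. They made up 15.6% of the 32, near the 17.5% of all genes that rose (24.1% fell, 41.6% in either direction), so their number is no result about these genes as a group. The median was 0.20, and 26 of the 32 values were above 0, against 50.4% of all genes. The oxaliplatin and vehicle libraries did not overlap in 10 genes that were higher and 1 that was lower, against 23.1% and 27.4% of all genes. The count moved with single libraries, to 8 without oxaliplatin library 1, 2 without oxaliplatin library 3, and 3 without oxaliplatin library 2, vehicle library 1 or vehicle library 3. It was 7 without vehicle library 2. With library totals alone it was 18. There the median of all genes was 0.30 and that of the 32 genes was 0.50, which is 0.20 above it. Among all genes, 3499 of 17498 rose without oxaliplatin library 1. The number was 1941 of 17472 without oxaliplatin library 2 and 1982 of 17468 without oxaliplatin library 3. It was 2253 of 17627, 3619 of 17711 and 2438 of 17624 without vehicle libraries 1, 2 and 3 in turn. With library totals alone 6408 of 17348 rose. The calls of Bub1b and Top2a held in every alternative setting. Both drug comparisons used the same vehicle libraries, so they are not independent of each other. For 25 of the 32 genes the group means ran in the order cisplatin, oxaliplatin, vehicle, highest to lowest.

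**Figure D1:**
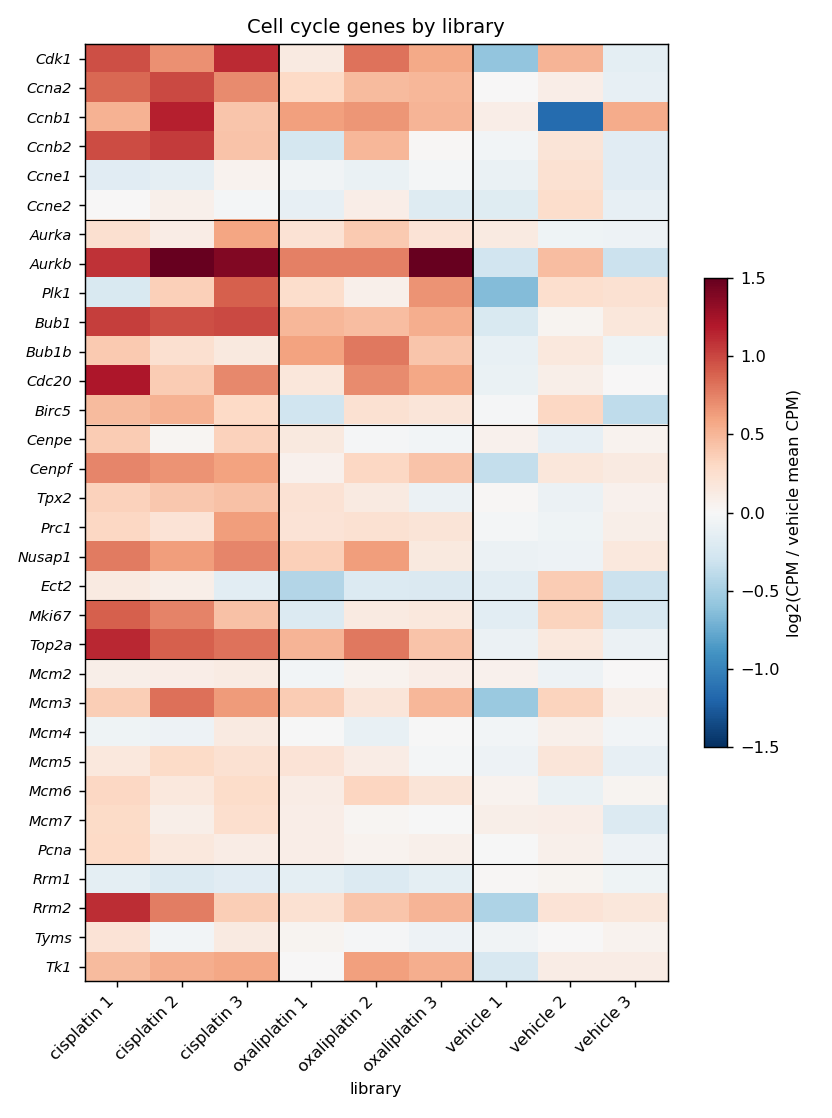
Level of each of the 32 genes in each library, as log2 of CPM over the vehicle mean, with genes in rows by role and the libraries of cisplatin, oxaliplatin and vehicle in columns. Red cells are above the vehicle mean and blue cells below, and the scale ends at 1.5 on either side. Most rows of mitotic genes are on average reddest in the 3 cisplatin columns, while the row of Bub1b is reddest in the oxaliplatin columns. The row of Rrm1 is pale blue in all 6 drug columns.

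Promoters are shown for 6 genes on which the results turn, namely the 4 largest called increases after cisplatin among genes with a promoter window in RefSeq (Cdk1, Bub1, Top2a and Ccnb2), the proliferation mark Mki67, and Rrm1, which fell. Each sequence is the 150 bases before the RefSeq start of transcription in build GRCm38.p6, read 5′ to 3′ on the gene's strand. Capitals mark the CCAAT box (CCAAT, or ATTGG on the other strand) and the cell cycle gene homology region, CHR (TTTGAA or TTCGAA, or TTCAAA for the first on the other strand), which are known as elements of many mitotic promoters. The windows lie at chr10:69352913-69353062, chr2:127831860-127832009, chr11:99024190-99024339, chr9:70421555-70421704 and chr7:135716380-135716529 on the minus strand for Cdk1, Bub1, Top2a, Ccnb2 and Mki67, and at chr7:102441545-102441694 on the plus strand for Rrm1.
Cdk1: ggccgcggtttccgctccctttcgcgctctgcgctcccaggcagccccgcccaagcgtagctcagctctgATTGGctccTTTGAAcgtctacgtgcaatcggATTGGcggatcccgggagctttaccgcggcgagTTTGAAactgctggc
Bub1: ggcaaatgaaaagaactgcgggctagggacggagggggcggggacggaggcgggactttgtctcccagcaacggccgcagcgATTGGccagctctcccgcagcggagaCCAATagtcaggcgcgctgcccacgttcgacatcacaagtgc
Top2a: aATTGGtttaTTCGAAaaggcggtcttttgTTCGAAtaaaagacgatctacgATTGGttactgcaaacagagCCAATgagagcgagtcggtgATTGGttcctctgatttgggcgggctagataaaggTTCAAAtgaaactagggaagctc
Ccnb2: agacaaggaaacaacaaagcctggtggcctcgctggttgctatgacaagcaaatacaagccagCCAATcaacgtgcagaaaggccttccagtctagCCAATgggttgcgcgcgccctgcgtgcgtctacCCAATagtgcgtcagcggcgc
Mki67: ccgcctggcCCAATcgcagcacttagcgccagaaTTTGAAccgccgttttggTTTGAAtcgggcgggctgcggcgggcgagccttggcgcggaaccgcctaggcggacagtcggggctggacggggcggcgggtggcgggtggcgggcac
Rrm1: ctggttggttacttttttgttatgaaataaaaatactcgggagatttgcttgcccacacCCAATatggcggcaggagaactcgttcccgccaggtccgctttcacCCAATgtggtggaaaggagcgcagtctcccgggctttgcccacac

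Within these 150 bases, CHR letters were found in Cdk1, Top2a and Mki67 and not in Bub1, Ccnb2 or Rrm1, and CCAAT letters in all 6. Over the full windows, from 250 bases before the start to 50 after it and on both strands, 27 of the 32 genes had a sequence. There, CHR letters were also found in Bub1 and Ccnb2, outside the printed bases, and not in Rrm1. A CCAAT box was present in 22 of the 27 (81.5%), against 41.1% of the windows of 27025 genes. CHR letters were present in 14 (51.9%), against 21.7%, and both motifs together in 14 (51.9%), against 8.61%. An E2F site (TTTGGCGC or TTTCCCGC) was present in 4 (14.8%), namely Mcm3, Mcm5, Mcm6 and Mcm7, against 1.80%. Both CCAAT and CHR letters were present in 8 of the 14 genes with a window that rose after cisplatin and in 6 of the 12 that did not pass the test. These matches describe letters only.

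Cdk1, the kinase that drives entry into mitosis, stood at 2.32, 1.90 and 2.58 CPM in cisplatin ganglia, 1.30, 2.08 and 1.76 CPM in oxaliplatin ganglia, and 0.787, 1.69 and 1.07 CPM in vehicle ganglia. Every cisplatin pool lay above every vehicle pool, while the oxaliplatin pools overlapped both. The log2 fold change of cisplatin over vehicle was 1.01 (SE 0.26, 95% interval 0.44 to 1.57, adjusted p = 0.00962), and that of oxaliplatin over vehicle was 0.61 (interval 0.03 to 1.19, adjusted p = 0.0860). Ccna2, which encodes cyclin A2 of S phase and G2, stood at 3.93, 4.29 and 3.54 CPM in cisplatin ganglia, 2.65, 3.01 and 3.06 CPM in oxaliplatin ganglia, and 2.17, 2.32 and 1.98 CPM in vehicle ganglia. For Ccna2 no 2 groups overlapped, with cisplatin on top and vehicle at the bottom. It rose by 0.88 after cisplatin (SE 0.13, adjusted p = 0.000353) and by 0.44 after oxaliplatin (SE 0.13, adjusted p = 0.0199). Ccnb2, which encodes cyclin B2, stood at 1.52, 1.59 and 1.04 CPM in cisplatin ganglia, 0.639, 1.09 and 0.777 CPM in oxaliplatin ganglia, and 0.750, 0.877 and 0.683 CPM in vehicle ganglia. Here the cisplatin pools lay above the vehicle pools and the oxaliplatin pools overlapped both. Ccnb2 rose by 0.87 after cisplatin (SE 0.26, adjusted p = 0.0203), and its value after oxaliplatin was 0.15 (interval -0.45 to 0.75, adjusted p = 0.691). The cisplatin call of Ccnb2 was lost without cisplatin library 1 or 2 or vehicle library 1 or 3 (adjusted p up to 0.0817), and the oxaliplatin call of Ccna2 without oxaliplatin library 2 or 3 or vehicle library 3 (up to 0.0830). Without vehicle library 2, Cdk1 passed the test for oxaliplatin (0.89, adjusted p = 0.0179).

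The other cyclins did not pass the test. Ccnb1, which encodes cyclin B1, had 3 to 39 reads per library, and its log2 fold change was 0.63 (interval -0.11 to 1.38) for cisplatin and 0.47 (interval -0.27 to 1.22) for oxaliplatin. The E cyclins of the G1/S transition were measured more precisely. Ccne1 was at -0.06 (interval -0.28 to 0.16) for cisplatin and -0.04 (interval -0.26 to 0.18) for oxaliplatin. Ccne2 was at 0.04 (interval -0.23 to 0.31) for cisplatin and -0.04 (interval -0.31 to 0.23) for oxaliplatin. Annotated exons of Ccna2 and Ccne2 overlap genes on the opposite strand (Exosc9 and Ints8), Ccnb1 and Ccnb2 have pseudogene copies, and the strand setting of the counting is not given, so their counts are uncertain to that extent.

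Among mitotic kinases and checkpoint genes, Aurkb had the largest log2 fold change of the 32 for either drug. It encodes Aurora B, the kinase of the chromosomal passenger complex. Its counts were 27, 50 and 36 reads in cisplatin libraries, 25, 26 and 43 reads in oxaliplatin libraries, and 8, 8 and 9 reads in vehicle libraries. On the scaled level these were 0.774, 1.21 and 0.957 CPM in cisplatin ganglia, 0.614, 0.616 and 1.11 CPM in oxaliplatin ganglia, and 0.300, 0.501 and 0.293 CPM in vehicle ganglia. All 6 drug pools lay above all 3 vehicle pools, and the drugs overlapped each other. Aurkb rose by 1.51 after cisplatin (SE 0.35, interval 0.74 to 2.28, adjusted p = 0.00567) and by 1.17 after oxaliplatin (SE 0.36, interval 0.37 to 1.96, adjusted p = 0.0226). The oxaliplatin call of Aurkb was lost without oxaliplatin library 3 or vehicle library 1 or 3 (adjusted p up to 0.0939).

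Bub1, a checkpoint kinase of the kinetochore, stood at 2.27, 2.15 and 2.18 CPM in cisplatin ganglia, 1.55, 1.52 and 1.61 CPM in oxaliplatin ganglia, and 0.937, 1.13 and 1.24 CPM in vehicle ganglia. No 2 groups overlapped. Bub1 rose by 0.99 after cisplatin (SE 0.16, adjusted p = 0.000523) and by 0.50 after oxaliplatin (SE 0.16, adjusted p = 0.0286), a call that was lost without oxaliplatin library 2 or 3 or vehicle library 1, with only the 2 groups compared and in DESeq2 (adjusted p up to 0.137). Bub1b, which encodes the checkpoint protein BubR1, followed another order. It stood at 6.74, 6.05 and 5.69 CPM in cisplatin ganglia, 7.76, 8.88 and 6.81 CPM in oxaliplatin ganglia, and 4.76, 5.70 and 4.91 CPM in vehicle ganglia. Every oxaliplatin pool lay above every other pool, and the cisplatin and vehicle pools overlapped by a narrow margin. Bub1b rose by 0.63 after oxaliplatin (SE 0.12, adjusted p = 0.00154), and its value after cisplatin was 0.28 (interval 0.01 to 0.55, adjusted p = 0.0911), which passed without vehicle library 2 (0.36, adjusted p = 0.0471).

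Cdc20, the activator of the anaphase-promoting complex, stood at 2.32, 1.30 and 1.65 CPM in cisplatin ganglia, 1.13, 1.63 and 1.5 CPM in oxaliplatin ganglia, and 0.937, 1.06 and 1.01 CPM in vehicle ganglia. All drug pools lay above all vehicle pools. Cdc20 rose by 0.81 after cisplatin (SE 0.25, adjusted p = 0.0230), and its value after oxaliplatin was 0.51 (interval -0.04 to 1.06, adjusted p = 0.123). The cisplatin call of Cdc20 was lost with the length and GC trend removed and without cisplatin library 1 or vehicle library 1 or 3 (adjusted p up to 0.0883). Aurka, Plk1 and Birc5, which encode Aurora A, Polo-like kinase 1 and survivin, did not pass the test for either drug. Their log2 fold changes ran from 0.32 to 0.48 for cisplatin and from 0.10 to 0.37 for oxaliplatin. Plk1 had 8 to 33 reads per library and the widest interval of these genes for cisplatin, -0.35 to 1.22.

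**Figure D2:**
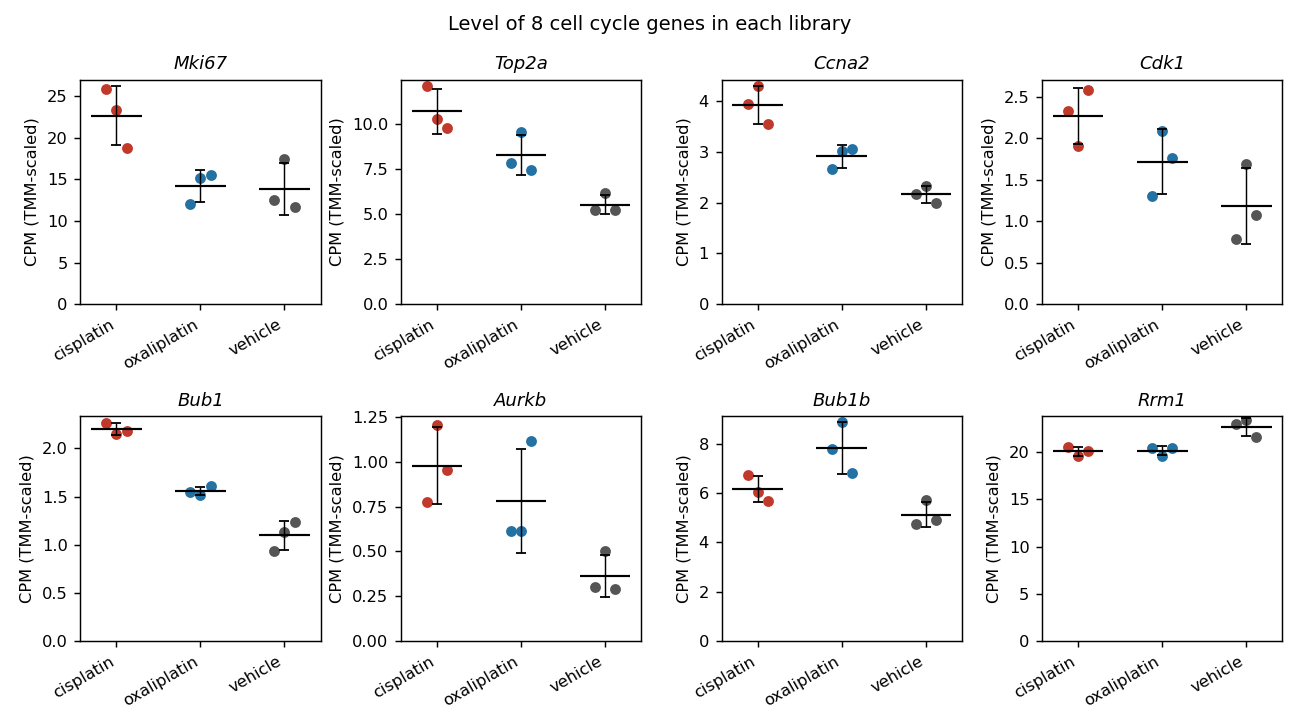
CPM after TMM scaling of 8 of the genes in each library (points), with the mean and SD of the 3 libraries of cisplatin, oxaliplatin and vehicle (lines), each axis starting at 0. Mki67 lies at 18.8 to 25.8 CPM in cisplatin, 12.1 to 15.5 CPM in oxaliplatin and 11.7 to 17.5 CPM in vehicle. Bub1b is highest in oxaliplatin, and Rrm1 is lower in both drugs than in vehicle.

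Genes of the spindle, the kinetochore and cytokinesis rose after cisplatin in 4 of 6 cases and after oxaliplatin in none of 6, where 1 unadjusted p-value (Nusap1) was under 0.05. Of all genes 15.8% rose after cisplatin and 17.5% after oxaliplatin, and with 6 genes a count of 0 is no result about them. Cenpf, a kinetochore protein gene, stood at 4.62, 4.44 and 4.23 CPM in cisplatin ganglia, 2.92, 3.46 and 3.76 CPM in oxaliplatin ganglia, and 2.17, 3.13 and 3.06 CPM in vehicle ganglia. Tpx2, which encodes a spindle assembly factor that activates Aurora A, stood at 4.90, 5.11 and 5.21 CPM in cisplatin ganglia, 4.47, 4.24 and 3.63 CPM in oxaliplatin ganglia, and 3.90, 3.63 and 4.03 CPM in vehicle ganglia. For both genes every cisplatin pool lay above every other pool, and the oxaliplatin and vehicle pools overlapped. Cenpf rose by 0.68 after cisplatin (SE 0.15, adjusted p = 0.00392) and was at 0.29 (interval -0.04 to 0.62) after oxaliplatin. Tpx2 rose by 0.39 after cisplatin (SE 0.11, adjusted p = 0.0144) and was at 0.09 (interval -0.15 to 0.33) after oxaliplatin.

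Nusap1, which encodes a spindle microtubule protein, stood at 2.61, 2.34 and 2.53 CPM in cisplatin ganglia, 1.94, 2.35 and 1.68 CPM in oxaliplatin ganglia, and 1.42, 1.44 and 1.69 CPM in vehicle ganglia. Prc1, which bundles microtubules of the spindle midzone, stood at 5.36, 4.97 and 6.65 CPM in cisplatin ganglia, 4.99, 5.07 and 4.95 CPM in oxaliplatin ganglia, and 4.24, 4.13 and 4.58 CPM in vehicle ganglia. The cisplatin pools lay above the vehicle pools for both genes. Nusap1 rose by 0.70 after cisplatin (SE 0.16, adjusted p = 0.00577), and its value after oxaliplatin was 0.38 (interval 0.02 to 0.74, adjusted p = 0.0883). Prc1 rose by 0.38 after cisplatin (SE 0.12, adjusted p = 0.0250), and its value after oxaliplatin was 0.20 (interval -0.06 to 0.47, adjusted p = 0.192). The call of Prc1 was lost without cisplatin library 3 or vehicle library 1 (adjusted p up to 0.0652). Cenpe, a kinetochore motor gene, and Ect2, a gene of cytokinesis, did not pass the test. They were at 0.25 and 0.07 for cisplatin, and at 0.02 and -0.24 for oxaliplatin. Exons of Cdc20, Plk1, Prc1 and Nusap1 overlap genes on the opposite strand.

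Mki67 and Top2a are the usual marks of cycling cells in tissue. Mki67, which encodes the chromosome surface protein Ki-67, spans chr7:135689784-135716361 and stood at 25.8, 23.4 and 18.8 CPM in cisplatin ganglia, 12.1, 15.2 and 15.5 CPM in oxaliplatin ganglia, and 12.5, 17.5 and 11.7 CPM in vehicle ganglia. All cisplatin pools lay above every other pool, and the oxaliplatin pools lay within the range of the vehicle pools. Mki67 rose by 0.73 after cisplatin (SE 0.15, interval 0.40 to 1.07, adjusted p = 0.00304) and was at 0.07 after oxaliplatin (interval -0.28 to 0.41, adjusted p = 0.765). Top2a, which encodes DNA topoisomerase II alpha, spans chr11:98992943-99024189 and stood at 12.1, 10.2 and 9.73 CPM in cisplatin ganglia, 7.84, 9.52 and 7.44 CPM in oxaliplatin ganglia, and 5.21, 6.14 and 5.20 CPM in vehicle ganglia. No 2 groups overlapped. Top2a rose by 0.97 after cisplatin (SE 0.12, interval 0.70 to 1.24, adjusted p = 0.000133), the smallest adjusted p of the 32, and by 0.60 after oxaliplatin (SE 0.13, interval 0.33 to 0.87, adjusted p = 0.00258).

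Of the 7 genes of the MCM helicase and PCNA, 3 rose after cisplatin and 0 after oxaliplatin, where 1 unadjusted p (Mcm6) was under 0.05, against 15.8% and 17.5% of all genes. Mcm3, a helicase subunit gene, stood at 3.33, 4.58 and 4.01 CPM in cisplatin ganglia, 3.37, 2.94 and 3.65 CPM in oxaliplatin ganglia, and 1.76, 3.26 and 2.73 CPM in vehicle ganglia, so the cisplatin pools lay just above the vehicle pools and the oxaliplatin pools overlapped both. It rose by 0.66 after cisplatin (SE 0.20, adjusted p = 0.0194) and was at 0.39 (interval -0.04 to 0.83) after oxaliplatin, where it passed without vehicle library 2 (0.57, adjusted p = 0.0400). Mcm6, another subunit gene, stood at 13.8, 12.4 and 13.4 CPM in cisplatin ganglia, 12, 14.0 and 12.7 CPM in oxaliplatin ganglia, and 11.5, 10.4 and 11.4 CPM in vehicle ganglia. All drug pools lay above all vehicle pools, by a small step. Mcm6 rose by 0.24 after cisplatin (SE 0.08, adjusted p = 0.0374), and its value after oxaliplatin was 0.20 (interval 0.03 to 0.38, adjusted p = 0.0628). Pcna, the sliding clamp of the fork, stood at 19.8, 18.0 and 17.4 CPM in cisplatin ganglia, 17.3, 16.7 and 16.9 CPM in oxaliplatin ganglia, and 16, 17 and 15.2 CPM in vehicle ganglia. Cisplatin pools lay above all others, and Pcna rose by 0.20 after cisplatin (SE 0.07, adjusted p = 0.0411), against 0.08 (interval -0.07 to 0.24) after oxaliplatin. That of Pcna was lost in 8 of 20 alternative settings, among them without cisplatin library 1 or 2, oxaliplatin library 2 or 3, or vehicle library 1 or 3. That of Mcm6 was lost in 6, among them without cisplatin library 1 or 3, oxaliplatin library 3, or vehicle library 2 or 3. That of Mcm3 was lost without cisplatin library 2 or vehicle library 1. Mcm2, Mcm4, Mcm5 and Mcm7 did not pass the test, with values of 0.01 to 0.24 for cisplatin and -0.03 to 0.12 for oxaliplatin. Exons of Mcm7 overlap Cops6 and Ap4m1 on the opposite strand and the microRNA genes Mir25 and Mir93, and Pcna has pseudogene copies.

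The subunits of ribonucleotide reductase moved in opposite directions after cisplatin on the TMM scale, though not with the length and GC trend removed. Rrm2, the small subunit, which is made in S phase, stood at 4.36, 3.45 and 2.61 CPM in cisplatin ganglia, 2.36, 2.70 and 2.88 CPM in oxaliplatin ganglia, and 1.46, 2.32 and 2.28 CPM in vehicle ganglia. All drug pools lay above all vehicle pools, by a narrow margin for oxaliplatin. Rrm2 rose by 0.79 after cisplatin (SE 0.22, adjusted p = 0.0123), and its value after oxaliplatin was 0.40 (interval -0.07 to 0.88, adjusted p = 0.159). The cisplatin call of Rrm2 was lost without vehicle library 1 (adjusted p = 0.0607). Rrm1, the large subunit of the same enzyme, stood at 20.5, 19.6 and 20.2 CPM in cisplatin ganglia, 20.4, 19.6 and 20.5 CPM in oxaliplatin ganglia, and 22.9, 23.4 and 21.6 CPM in vehicle ganglia. All drug pools lay below all vehicle pools. Rrm1 fell by 0.17 after cisplatin (SE 0.06, adjusted p = 0.0382) and by 0.17 after oxaliplatin (SE 0.06, adjusted p = 0.0400). With library totals alone Rrm1 was at 0.12 for cisplatin and 0.14 for oxaliplatin, which still lay below the medians of all genes (0.29 and 0.30). With each library's length and GC trend removed its direction turned, to 0.12 for cisplatin and 0.13 for oxaliplatin, where the median of all genes was 0.02 for each. Its call was lost in 15 of 20 alternatives for each drug, among them without vehicle library 1 or 2.

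Tk1, the cytosolic thymidine kinase of the salvage pathway, stood at 2.35, 2.46 and 2.53 CPM in cisplatin ganglia, 1.70, 2.58 and 2.46 CPM in oxaliplatin ganglia, and 1.42, 1.82 and 1.82 CPM in vehicle ganglia. The cisplatin pools lay above the vehicle pools. Tk1 rose by 0.54 after cisplatin (SE 0.18, adjusted p = 0.0355), and its value after oxaliplatin was 0.42 (interval 0.02 to 0.82, adjusted p = 0.0886). The cisplatin call of Tk1 was lost when any of the 3 cisplatin libraries, or vehicle library 1 or 3, was left out, and in DESeq2. Tyms, which encodes thymidylate synthase, was at 0.10 for cisplatin (interval -0.18 to 0.38) and -0.02 for oxaliplatin (interval -0.30 to 0.26). Exons of Tk1 overlap Afmid on the opposite strand, and Tyms has a pseudogene copy.

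**Figure D3:**
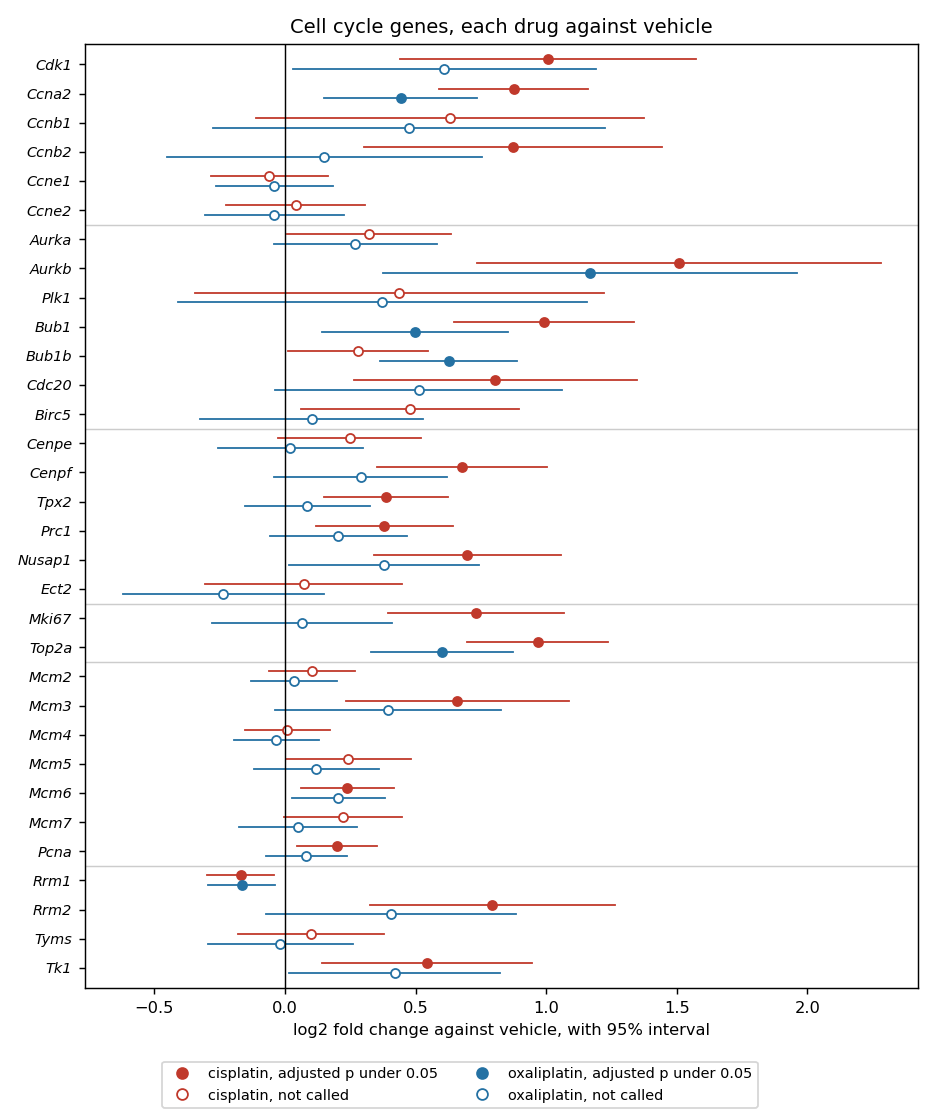
Log2 fold change of each gene against vehicle with its 95% interval, cisplatin in red above oxaliplatin in blue, with genes in rows by role and filled points where the adjusted p is under 0.05. Filled red points number 18 and filled blue points 6, and the longest intervals belong to Aurkb, Plk1 and Ccnb1, which had the fewest reads.

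Per kilobase of annotated exon, Pcna ranked first, at 7.68 CPM per kb in cisplatin, 7.07 in oxaliplatin and 6.71 in vehicle ganglia. Mcm4, Ccne1 and Mcm6 followed in that order in all 3 groups. Ccnb1 was last, at 0.166 CPM per kb in cisplatin, 0.150 in oxaliplatin and 0.0992 in vehicle ganglia. Mki67 held place 5 in cisplatin, 10 in oxaliplatin and 8 in vehicle ganglia. These levels use the summed exon length of each gene and not the isoform that was transcribed.

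Cisplatin and oxaliplatin were compared directly at the matched cumulative dose, over the 32 genes and with p-values adjusted over all 17348 genes tested. None of the 32 passed the test, and 0.0115% of all genes did. The lowest adjusted p was 0.5, and 8 unadjusted p-values were under 0.05. DESeq2 called 1 of the 32 (Mki67) and gave no adjusted p for some of them. Among the 13816 genes that it tested, it called 11 higher and 4 lower. Of the 32 log2 fold changes, 29 were above 0, against 48.5% of all genes, and the median was 0.20, against -0.00 for all genes. The cisplatin and oxaliplatin pools did not overlap in 9 genes that were higher and 1 that was lower after cisplatin, against 8.04% and 6.1% of all genes.

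Mki67 differed most by p among the 32. Its level in cisplatin over oxaliplatin was 0.67 on the log2 scale (SE 0.15, interval 0.35 to 0.99), with an adjusted p of 0.5 in edgeR and 0.0140 in DESeq2. Over all alternatives its log2 fold change ran from 0.56 to 0.78. Bub1 was at 0.50 (interval 0.19 to 0.80), Ccna2 at 0.43 (interval 0.18 to 0.69) and Top2a at 0.37 (interval 0.12 to 0.61). Ccnb2 had the largest value, 0.72 (interval 0.21 to 1.23), with overlapping pools. Bub1b was the only gene of the 32 with non-overlapping pools that was lower after cisplatin than after oxaliplatin, at -0.35 (interval -0.59 to -0.10). The adjusted p-values of these genes ran from 0.5 to 0.696, so the difference between the compounds is not shown for any of them. A p that misses the threshold does not show that they act alike either, since the intervals of Mki67, Bub1, Ccna2, Top2a, Ccnb2 and Bub1b exclude 0 before adjustment. The difference was small within narrow intervals for Rrm1 (-0.13 to 0.12), Mcm4 (-0.12 to 0.20) and Mcm6 (-0.14 to 0.20).

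**Figure D4:**
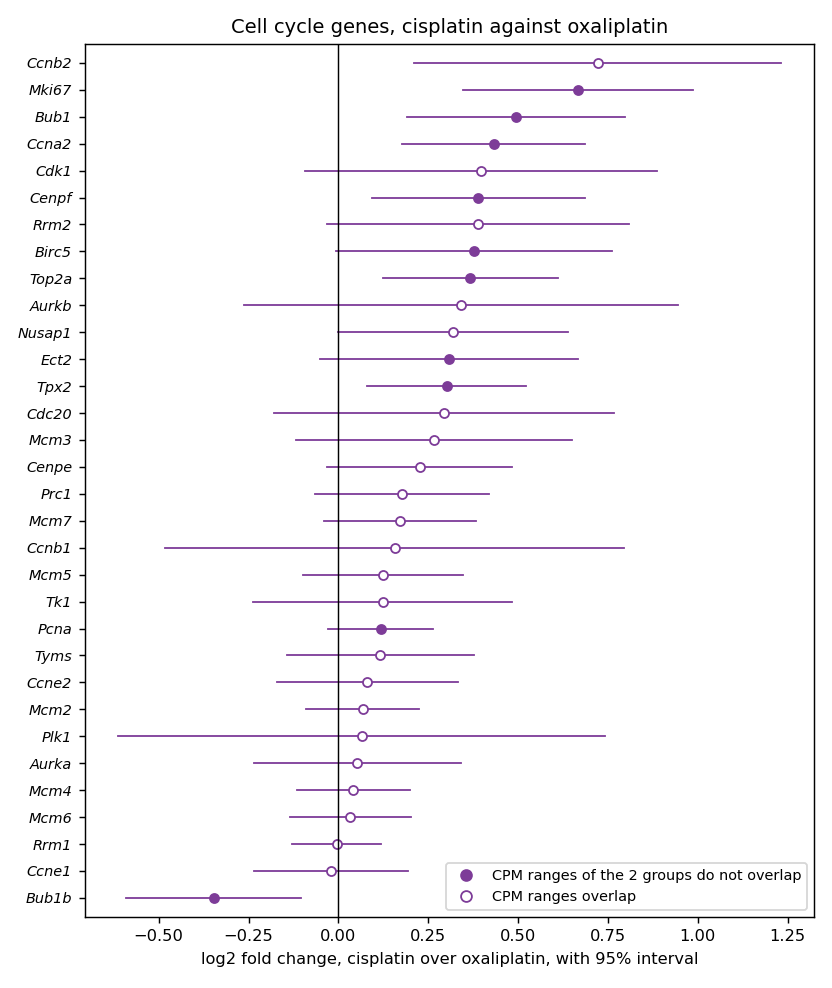
Log2 fold change of cisplatin over oxaliplatin for each of the 32 genes with its 95% interval, sorted by size, with filled points where the CPM ranges of the 3 libraries of each drug do not overlap. Ccnb2 is at the top at 0.72 and Bub1b at the bottom at -0.35. None passes an adjusted p of 0.05.

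Other genes of the cycle were counted by lists. Of 40 other mitotic genes, 15 rose and 2 fell after cisplatin (median 0.36), and 8 rose and 4 fell after oxaliplatin (median 0.24). The share that rose was 37.5% after cisplatin, against 15.8% of all genes, and 20% after oxaliplatin, near the 17.5% of all genes and so no result about the list. Dlgap5, a spindle protein gene, rose by 1.28 after cisplatin (SE 0.26, adjusted p = 0.00254) and by 0.77 after oxaliplatin (SE 0.27, adjusted p = 0.0386). Ncaph, a condensin subunit gene, rose by 0.93 after cisplatin (adjusted p = 0.00197) and by 0.77 after oxaliplatin (adjusted p = 0.00583). Pttg1, which encodes securin, rose by 0.34 after cisplatin (adjusted p = 0.00295) and by 0.42 after oxaliplatin (adjusted p = 0.000615).

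For DNA replication, 16.7 to 23.5% of the genes of each list rose after cisplatin and 17.6 to 29.2% after oxaliplatin. The shares of all genes were 15.8% higher and 22.9% lower after cisplatin, and 17.5% higher and 24.1% lower after oxaliplatin. The shares of these lists that fell were below those of all genes, and the differences were not tested. Of 17 genes of origin licensing and firing, 4 rose and 1 fell after cisplatin (median 0.12), and 3 rose and 2 fell after oxaliplatin (median -0.01). Cdc45, a part of the active helicase, rose by 0.41 after cisplatin (adjusted p = 0.0123) and by 0.38 after oxaliplatin (adjusted p = 0.0156). Orc4, an origin recognition subunit gene, fell by 0.33 after cisplatin (adjusted p = 0.00167) and by 0.51 after oxaliplatin (adjusted p = 9.18e-05). Orc3, another subunit gene, was at -0.12 after cisplatin (adjusted p = 0.0997) and fell by 0.17 after oxaliplatin (adjusted p = 0.0204). Of 24 replication polymerase and fork genes, 4 rose and 4 fell after cisplatin (median 0.15), and 7 rose and 2 fell after oxaliplatin (median 0.18). Chaf1b, which encodes a chromatin assembly subunit, rose by 0.58 after cisplatin (adjusted p = 0.0152) and by 0.79 after oxaliplatin (adjusted p = 0.00241). The clamp loader genes Rfc2 and Rfc5 rose by 0.22 and 0.52 after cisplatin, and by 0.28 and 0.65 after oxaliplatin.

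Of 19 RB, E2F and DREAM genes, 3 rose and 2 fell after cisplatin (median 0.02), and 2 rose and 3 fell after oxaliplatin (median -0.10). These counts were at or below the shares of all genes and are no result about the list. Rb1, which encodes the retinoblastoma protein that restrains E2F factors, stood at 42.9, 41.0 and 42.5 CPM in cisplatin ganglia, 43.9, 38.0 and 37.4 CPM in oxaliplatin ganglia, and 63.9, 64.5 and 56.5 CPM in vehicle ganglia. All drug pools lay below all vehicle pools. Rb1 fell by 0.55 after cisplatin (SE 0.07, adjusted p = 0.000152) and by 0.63 after oxaliplatin (SE 0.07, adjusted p = 5.11e-05). E2f2, an activating E2F gene, rose by 0.61 after cisplatin (adjusted p = 0.00336) and by 0.40 after oxaliplatin (adjusted p = 0.0305). E2f4, whose product acts mainly in repression, was at -0.19 after cisplatin (adjusted p = 0.107) and fell by 0.38 after oxaliplatin (adjusted p = 0.00485).

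Of 6 D cyclin and G1 kinase genes, 4 rose and 0 fell after cisplatin, and 4 rose and 1 fell after oxaliplatin, against 15.8% of all genes higher after cisplatin and 17.5% after oxaliplatin. Ccnd1, which encodes cyclin D1, rose by 0.45 after cisplatin (adjusted p = 0.000283) and by 0.37 after oxaliplatin (adjusted p = 0.000804). Cdk4, its kinase, rose by 0.24 after cisplatin and by 0.28 after oxaliplatin. Ccnd3, which encodes cyclin D3, rose by 0.34 after cisplatin and by 0.28 after oxaliplatin. Of 8 genes of cyclin-dependent kinase inhibitors, 2 rose and 0 fell after cisplatin, and 2 rose and 1 fell after oxaliplatin, not far from the shares of all genes. Cdkn2c, which encodes p18, rose by 0.55 after cisplatin (adjusted p = 0.00562) and by 0.67 after oxaliplatin (adjusted p = 0.00148). Cdkn1c, which encodes p57, rose by 0.61 after cisplatin (adjusted p = 0.0284) and by 0.71 after oxaliplatin (adjusted p = 0.0117). Cdkn1a, the p21 gene and a target of p53, stood at 22.6, 22.9 and 22.7 CPM in cisplatin ganglia, 19.1, 18.7 and 18.2 CPM in oxaliplatin ganglia, and 24.4, 30.5 and 24.5 CPM in vehicle ganglia. It was at -0.21 after cisplatin (adjusted p = 0.0548) and fell by 0.49 after oxaliplatin (adjusted p = 0.000573). None of the genes in these 6 lists passed the test between cisplatin and oxaliplatin, where the lowest adjusted p was 0.599 (Cdkn1a).

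Markers of some other cell types also rose, among them those of neutrophils and their precursors. All 16 of these neutrophil markers rose after cisplatin and 13 of 16 rose after oxaliplatin, against 15.8% and 17.5% of all genes. Their summed level was 317, 279 and 198 CPM in cisplatin libraries 1 to 3, 105, 238 and 221 CPM in oxaliplatin libraries 1 to 3, and 67.9, 120 and 51.5 CPM in vehicle libraries 1 to 3. The summed mitotic genes stood at 90.8, 83.6 and 80.7 CPM in cisplatin libraries 1 to 3, 62.6, 72.5 and 66.9 CPM in oxaliplatin libraries 1 to 3, and 52.7, 62.6 and 53.3 CPM in vehicle libraries 1 to 3. Cisplatin library 1, oxaliplatin library 2 and vehicle library 2 were the highest of their groups in both sums. The sum of B cell markers without Ebf1 had the same order of libraries as the mitotic sum in every group. The sum of erythroid markers without Tfrc had the same lowest libraries as the mitotic sum. Vehicle library 2 was also the library with the scaling factor of 0.700. What these shared orders reflect was not tested. The lowest vehicle library was library 1 in the mitotic sum and library 3 in the neutrophil sum. S100a9 and S100a8, the most abundant of the list, averaged 80.1 ± 20.2 and 55.8 ± 15.8 CPM in cisplatin, 57.9 ± 24.1 and 39.5 ± 16.8 CPM in oxaliplatin, and 22.5 ± 10.6 and 15.0 ± 7.50 CPM in vehicle ganglia (SD, n = 3 each).

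Primary granule genes (Elane, Mpo, Prtn3 and Ctsg), which are transcribed in dividing neutrophil precursors of the marrow, summed to 9.73 to 10.8 CPM in cisplatin libraries, 3.49 to 7.94 CPM in oxaliplatin libraries and 2.41 to 5.45 CPM in vehicle libraries. This subset was chosen after its values were seen. The full list does not separate precursors from mature neutrophils. None of the 16 markers was at 0 in any library, and their part in the mitotic genes' difference was not tested.

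**Figure D5:**
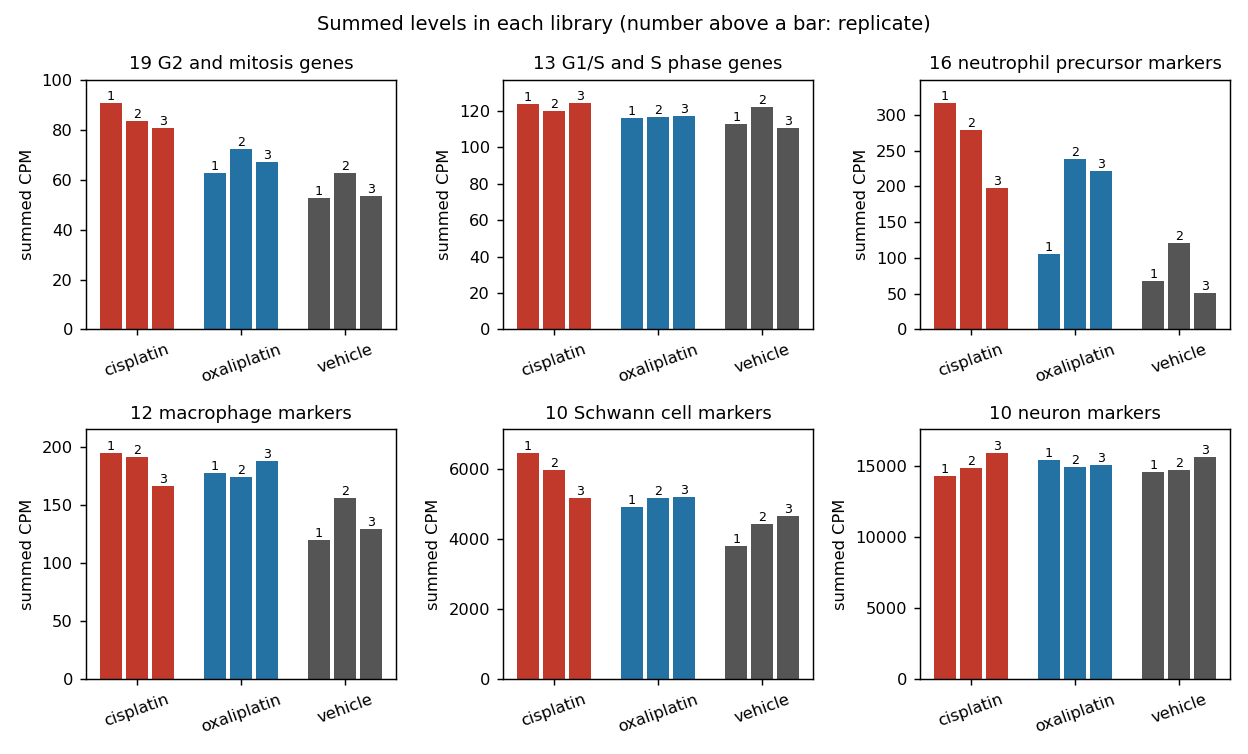
Summed CPM in each library of the 19 genes of G2 and mitosis, the 13 genes of G1/S and S phase and 4 lists of cell type markers, for cisplatin, oxaliplatin and vehicle, each axis starting at 0. The mitotic sum and the sum of neutrophil markers (the panel of neutrophil precursor markers) are both highest in cisplatin library 1, oxaliplatin library 2 and vehicle library 2. The sum of B cell markers without Ebf1, not shown, has the same order of libraries as the mitotic sum in every group. The neuron sum differs little between groups.

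The counts that follow stand against 15.8% of all genes higher and 22.9% lower after cisplatin, and 17.5% and 24.1% after oxaliplatin. Of 11 erythroid markers, 8 rose and 1 fell after cisplatin, and 6 rose and 1 fell after oxaliplatin. The marker that fell was the transferrin receptor gene Tfrc, which neurons also express. With Tfrc the sum of the erythroid markers was 312 to 414 CPM in cisplatin, 306 to 422 CPM in oxaliplatin and 296 to 336 CPM in vehicle libraries. Without it their sum was 103 to 223 CPM in cisplatin libraries, 87.5 to 213 CPM in oxaliplatin libraries and 41.5 to 59.6 CPM in vehicle libraries. Of 12 macrophage markers, 10 rose and 1 fell after cisplatin, and 8 rose and 1 fell after oxaliplatin, with sums of 167 to 195 CPM in cisplatin, 175 to 188 CPM in oxaliplatin and 120 to 156 CPM in vehicle libraries. Mrc1 and Csf1r, the most abundant of them, rose by 0.44 and 0.45 after cisplatin and by 0.34 and 0.43 after oxaliplatin. Of 10 Schwann cell markers, 9 rose after cisplatin and 4 after oxaliplatin, with sums of 5170 to 6458 CPM in cisplatin, 4915 to 5188 CPM in oxaliplatin and 3810 to 4654 CPM in vehicle libraries. Of 10 endothelial markers, 6 rose after cisplatin and 9 after oxaliplatin, with sums of 149 to 189 CPM in cisplatin, 159 to 180 CPM in oxaliplatin and 114 to 142 CPM in vehicle libraries. Their part in the mitotic genes' values was not tested.

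Of 10 satellite glia markers, 2 rose and 3 fell after cisplatin, and 1 rose and 3 fell after oxaliplatin. Their sums were 3452 to 3701 CPM in cisplatin, 3667 to 3873 CPM in oxaliplatin and 2993 to 3334 CPM in vehicle libraries. Apoe alone made up most of these sums, with means of 2234 CPM in cisplatin, 2430 CPM in oxaliplatin and 1837 CPM in vehicle ganglia. The median log2 fold change of the 10 markers was -0.01 after cisplatin and -0.05 after oxaliplatin. Of 10 neuron markers, 3 fell after each drug and none rose. These counts lie near the shares of all genes (15.8% higher and 22.9% lower after cisplatin, 17.5% higher and 24.1% lower after oxaliplatin). Lymphocyte markers other than Ebf1 were sparse. Of 12 B cell markers 7 could be tested, and 3 rose and 1 fell after cisplatin, and 1 rose and 1 fell after oxaliplatin. Rag2 was at 0 in oxaliplatin libraries 1 and 3 and in all vehicle libraries, and Dntt in vehicle library 2. The B cell marker that fell was Ebf1, which other cells also express. With it the B cell markers summed to 152 to 156 CPM in cisplatin, 145 to 159 CPM in oxaliplatin and 156 to 184 CPM in vehicle libraries. Without it they summed to 3.86 to 6.85 CPM in cisplatin, 3.37 to 5.33 CPM in oxaliplatin and 2.02 to 3.63 CPM in vehicle libraries. Of 10 T and NK cell markers 5 could be tested, and 1 rose after each drug, with sums of 2.29 to 2.79 CPM in cisplatin, 1.92 to 2.56 CPM in oxaliplatin and 1.39 to 2.0 CPM in vehicle libraries. Some of them (Cd8a, Cd8b1, Cd3g and Ncr1) were at 0 in 1 or 2 libraries. Glial, vessel and immune cells can all divide, and which cells held the mitotic transcripts was not measured. The part of the lymphocyte markers was not tested.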

How the data were processed

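Whole ganglia were profiled by stranded total RNA sequencing with single-end reads of 75 nucleotides, in 9 libraries, per the labels' protocols. The deposited files hold counts of raw reads per gene symbol, which the authors did not normalize. Per the submitters' processing notes, STAR, SAMtools and HTSeq were used (no versions recorded) with build mm10 (GRCm38). Sources used here give neither the annotation nor the strand setting of the counting. Reads assigned to no gene, 42.8 to 74.5% of recorded reads, were left out of library sizes and tests.

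Counts were fitted with edgeR 4.0.16 (limma 3.58.1, R 4.3.3), with 1 term per group, all 9 libraries, TMM scaling, filterByExpr and the quasi-likelihood F test. The contrasts were cisplatin over vehicle, oxaliplatin over vehicle and cisplatin over oxaliplatin. A gene was called at an adjusted p (Benjamini-Hochberg, 17348 genes) under 0.05, and fold changes are log2 with 95% intervals. Floors of 3 reads cover counting error only. The procedure was tested on simulated counts. Symbols were matched to GENCODE M21 (96.1%) for positions and exon lengths, and promoters are from RefSeq.

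The 32 genes, the other lists and the rule for naming genes were chosen with earlier results of these data known. The rule names all 32 genes, those called in any comparison in full and the others by ranges, the 3 genes of smallest p in each other cell cycle list and the most abundant markers of each cell type list. Of 216 genes of the other lists, 215 were in the files. Alternatives were library totals alone, median-ratio size factors, no count filter, at least 1 CPM in 3 libraries, limma-voom, DESeq2 1.42.0, a robust fit, a threshold of 0.1, a replicate block, only the 2 groups compared in the fit, length and GC trends removed (mgcv 1.9.3) and each library left out in turn.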

Additional observations from a re-analysis of the deposited data

How the results depend on the processing

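For cisplatin against vehicle, the 17 genes called higher became 25 with library totals alone, 16 to 19 in the other settings with all libraries, 21 at an adjusted p of 0.1, and 10 to 19 when a library was left out. The 1 gene called lower became 0 with library totals alone, median-ratio size factors, no count filter, at least 1 CPM in 3 libraries, the length and GC trend removed, only the 2 groups compared and DESeq2, and 0 to 1 when a library was left out, with the same counts for oxaliplatin against vehicle. The median moved to 0.69 for cisplatin and 0.50 for oxaliplatin with library totals alone. For cisplatin, 2744 of all 17348 genes were called higher in the main fit. This number was 5987 with library totals alone and 3679 at an adjusted p of 0.1. In the other settings with all libraries it was 2368 to 3444, with 15064 to 27250 genes tested. It ran from 1787 of 17460 (without cisplatin library 2) to 3401 of 17711 (without vehicle library 2) when a library was left out.

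For oxaliplatin against vehicle, the 5 genes called higher became 18 with library totals alone, 9 at an adjusted p of 0.1 and 2 to 8 when a library was left out. The median was 0.26 without a count filter and 0.16 to 0.30 when a library was left out. Among all 17348 genes, 3043 were called higher in the main fit. This number was 6408 with library totals alone and 3895 at an adjusted p of 0.1. It ran from 1941 of 17472 (without oxaliplatin library 2) to 3619 of 17711 (without vehicle library 2) when a library was left out. For cisplatin against oxaliplatin, the 0 genes called higher became 1 (Mki67) with library totals alone, with no count filter and in DESeq2. Its adjusted p-values there were 0.00351, 0.00506 and 0.0140, against 0.169 to 0.995 in the other alternatives. Library totals alone, no count filter and DESeq2 called 30 of 17348, 11 of 27250 and 11 of 13816 of all genes higher.

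Signs turned for Rrm1, at 0.12 and 0.14 for cisplatin and oxaliplatin over vehicle with library totals alone, where the medians of all genes were 0.29 and 0.30 and Rrm1 stayed below them, and at 0.12 and 0.13 with the length and GC trend removed, where the medians of all genes were 0.02. For oxaliplatin over vehicle, Ccnb2 was at -0.021 with that trend removed. When a library was left out, Ccnb2 ran from -0.093 (without oxaliplatin library 2) to 0.34 and Mki67 from -0.048 (without vehicle library 3) to 0.26. Between the drugs, leaving out a library gave -0.020 to 0.095 for Mcm6 and -0.048 to 0.24 for Tk1, both lowest without oxaliplatin library 1, and -0.025 to 0.013 for Rrm1. The cause was not tested.

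The labels number the replicates 1 to 3 in each group and state no pairing. Same-numbered libraries deviated together with correlations of -0.210 to 0.168, and differently numbered ones with -0.315 to 0.281. With 3 libraries a group, these values cannot settle whether the numbers pair the libraries. With a replicate block, 16 of the 32 genes were called higher and 0 lower for cisplatin (median 0.42). For oxaliplatin 5 were higher and 0 lower (median 0.21), and between the drugs 0 were called (median 0.20). Among all 17348 genes, that block gave 2685 higher and 3958 lower for cisplatin, and 2984 higher and 4156 lower for oxaliplatin. The 95% intervals reached 0.30 to either side at the median of the 32 genes for each drug over vehicle, and differences below that were mostly not detectable. For the 13 genes called in no comparison, the sign turned in 8 of 258 alternative values for cisplatin, 26 of 258 for oxaliplatin and 8 of 256 between the drugs.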
